A study of Mus musculus with 4 samples.

Results

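Among CD8 T cells from lymph nodes that drain a tumour, the cells described here are those with the most messenger RNA of replication-dependent histones, the mark of a cell copying its DNA. They were chosen by a score, the mean of log1p(UMIs per 10000) over 7 genes: the linker histone Hist1h1b, the core histones Hist1h2ap, Hist1h2ae, Hist1h2ab and Hist1h3c, the ribonucleotide reductase subunit Rrm2 and the fork protein Clspn. UMIs are unique molecular identifiers, each counted once per RNA molecule captured. Of 11113 cell barcodes, 9770 were eligible: at least 500 genes, at least 1000 UMIs, at most 10% mitochondrial UMIs, under 2 UMIs of the B cell genes Cd79a and Ms4a1 and under 5 UMIs of the granzyme genes Gzma and Gzmb. The 12% of eligible cells with the highest score, pooled over the libraries, gave 1172 histone-high cells. They are set against 507 late G2 and mitosis cells, which were high for 7 mitotic genes and not for the score, and against the remaining 8091 eligible cells. The score chose them, so their levels of the 7 genes, and every comparison with the cells left behind, are descriptions without a test. The lowest score among them was 0.365 and the highest outside was 0.364, with 72 cells within 0.05 above the limit and 88 within 0.05 below it. The median score was 1.58 in histone-high cells, 777 of them (66.3%) scored at least 1, and 5116 of the other 8598 cells scored 0.

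The study compared 2 groups of C57BL/6 mice bearing tumours: C6M9, labelled low affinity GP33, and M9, labelled high affinity GP33, where GP33 is a peptide of a viral glycoprotein that CD8 T cells recognise. The series title places it around antitumour progenitor exhausted CD8 T cells and engagement of the T cell receptor. What else the names C6M9 and M9 stand for is not given in the sources used here. In both groups the nodes were taken 14 days after the tumour was implanted, and CD8 cells positive for CD44, an activation marker, and for CD90.1, a form of Thy1 that C57BL/6 mice do not carry themselves, were sorted. Each group has 2 libraries made with droplet 3′ chemistry, and the library was the replicate throughout (n = 2 per group). The protocol names 35 mice for C6M9 and 10 for M9 as biological duplicates without saying how they were pooled, so a p-value here measures the spread between 2 libraries. The libraries held 73379913 and 65721043 UMIs in C6M9 and 79174627 and 33680632 UMIs in M9. T cell receptor and CD8 genes were present in the histone-high cells of each library, with sums over 10 T cell genes of 5924 to 6818 CPM (the UMIs of a gene per 1000000 UMIs of its class). Foxp3 and Ncr1 were at 0, and 5 of 11 myeloid and 5 of 6 red cell and platelet markers were at 0. Other markers were present. The gamma delta T cell list had 0 of 5 at 0 and summed to 264.5 to 340.3 CPM. Of its 5 genes, 1 averaged at least 5 CPM in histone-high or remaining cells. The B cell list summed to 243.1 to 337.7 CPM, with 4 of 10 genes at that level, and Ighm gave most of the sum. The myeloid list summed to 75.3 to 93.5 CPM, the melanoma and stroma list to 31.7 to 40.4 CPM. The CD4 and regulatory T cell list summed to 25.25 to 47.08 CPM, the NK and innate lymphoid list to 1.40 to 3.18 CPM. In these lists 3 of 11 myeloid, 1 of 7 melanoma and stroma, 2 of 6 CD4 and 0 of 6 NK markers reached 5 CPM.

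M9 replicate 2 stood apart before any comparison of groups. It had the fewest UMIs in all, and each of the 3 classes of its cells had the most histone RNA of the 4 libraries, with a sum of 10400 CPM in histone-high cells, against 5092 to 6393 in the other libraries. CPM levels were scaled jointly by the trimmed mean of M values (TMM). Counts of calls that rest on this library are given with and without it. Between 0 and 4 barcodes were shared by any pair of libraries, and none was histone-high in both.

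As background, a T cell that divides copies its genome in S phase and must package the new DNA at once. Core and linker histones for this are made from clustered genes whose messages end in a conserved stem-loop in place of a poly(A) tail. The stem-loop is bound by SLBP, and the messages are destroyed when DNA synthesis stops, which ties histone RNA closely to S phase. Cyclin E and E2F factors drive entry into S phase, the MCM helicase and its loaders license origins, and cyclin A and B with CDK1 carry the cell through G2 into mitosis. In lymph nodes, division of antigen-specific CD8 T cells follows recognition of their peptide.

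Histone genes set these cells apart. The matrices list 67 genes of this family, 54 of them between chr13:21715763-23934851 (GRCm38), 10 on chromosome 3, 2 on chromosome 11 and 1 on chromosome 6. In histone-high cells 57 averaged at least 1 CPM and 30 at least 20 CPM. The 3 with the most UMIs, Hist1h2ap, Hist1h1b and Hist1h2ae, gave 59.1% of all histone UMIs, and the 5 histone genes of the score gave 65.8%. Of the 52 others at 1 CPM or more, 45 were at least 2-fold higher in histone-high than in remaining cells in each of the 4 libraries.

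The stem-loops of 6 of these messages are shown because they stand in place of a poly(A) tail. How the droplet 3′ chemistry captured these messages was not tested. Of the 67 genes, 42 held a stem-loop motif in an annotated transcript, and those transcripts ran on for 3 to 4884 bases after it, with a median of 112.5. The capitals mark the 16 bases of the stem-loop, in the direction of the message, with up to 7 bases on each side.
Hist1h2ap: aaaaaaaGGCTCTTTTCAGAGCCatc
Hist1h2ae: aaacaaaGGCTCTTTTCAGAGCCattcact
Hist1h3c: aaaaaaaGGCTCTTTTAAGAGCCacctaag
Hist1h1e: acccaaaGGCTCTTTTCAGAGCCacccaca
Hist1h4d: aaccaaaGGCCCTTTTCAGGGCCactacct
Hist1h4i: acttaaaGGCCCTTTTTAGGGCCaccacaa

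Hist1h2ap (chr13:21833026-21833507, minus strand) and Hist1h2ae (chr13:23570517-23571220, minus strand) code for H2A. Their annotated transcripts go on for 3 and 151 bases past the stem-loop. Hist1h3c (chr13:23744973-23745602, minus strand) codes for H3, Hist1h1e (chr13:23620629-23622558, minus strand) for a linker histone, and Hist1h4d (chr13:23581598-23582735, plus strand) and Hist1h4i (chr13:22040636-22041362, minus strand) for H4. In Hist1h4d and Hist1h1e 770 and 1153 bases follow. No motif was found in the annotated transcript of Hist1h1b. Sequence is shared between copies: 92.4% of the 90-base windows of Hist1h2ap and 31.9% of those of Hist1h2ae also occur in another gene of the family, against 0.858% for Hist1h4d and 0% for Hist1h1b. UMIs of the genes with shared windows may have been divided among copies or dropped, so their single values are uncertain.

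Hist1h1b had 1276 and 885 CPM in histone-high cells of C6M9, against 1563 and 1527 CPM in those of M9. In remaining cells it had 6.73 and 6.15 CPM in C6M9 and 7.94 and 6.19 CPM in M9. Hist1h2ap had 901 and 1719 CPM in C6M9 and 1329 and 2701 CPM in M9, so the second replicate was the higher one in both groups. Hist1h3c had 172 and 158 CPM in C6M9, against 210 and 521 CPM in M9. These 3 genes were part of the score and were not tested.

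Histone genes outside the score can be compared between groups. Hist1h4d had 195 and 175 CPM in histone-high cells of C6M9, against 213 and 550 CPM in those of M9. Hist1h1e had 354 and 254 CPM in C6M9, against 381 and 530 CPM in M9. Both M9 libraries lay above both C6M9 libraries in these genes, and M9 replicate 2 lay far above M9 replicate 1 in Hist1h4d. Hist1h4i was flat, with 80.7 and 66.7 CPM in C6M9 and 79.1 and 73.9 CPM in M9.

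Across the 54 histone genes outside the score that could be tested, the log2 difference C6M9 minus M9 was below 0 in 50, with a median of -0.64 and a range of -1.36 to 0.33. The median over all genes tested was 0.00. The score differed as well: its median in histone-high cells was 1.49 and 1.51 in C6M9, against 1.76 and 1.79 in M9, and the part of this in the histone difference was not tested. Over all genes tested in histone-high cells, 0.33% were higher and 0.46% lower in C6M9. None of the 54 passed edgeR's quasi-likelihood test with Benjamini-Hochberg adjustment at 0.05, where the lowest adjusted p was 0.062. Without adjustment 34 had a p under 0.05, and DESeq2 called 5. With the replicate number as a block 20 passed, and with no filter on low counts 33. Which libraries were used mattered too: 39 of them passed without M9 replicate 1, 4 when C6M9 replicate 1 was left out, and 0 when the second replicate of either group was. M9 replicate 2 had the highest value of the 4 libraries in 24 of the 25 such genes at 20 CPM or more. Its histone excess was not limited to histone-high cells. The summed histone level in remaining cells was 257 and 267 CPM in C6M9, against 227 and 395 CPM in M9, and in late G2 and mitosis cells 387 and 423 CPM in C6M9, against 404 and 515 CPM in M9.

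**Figure D1:**
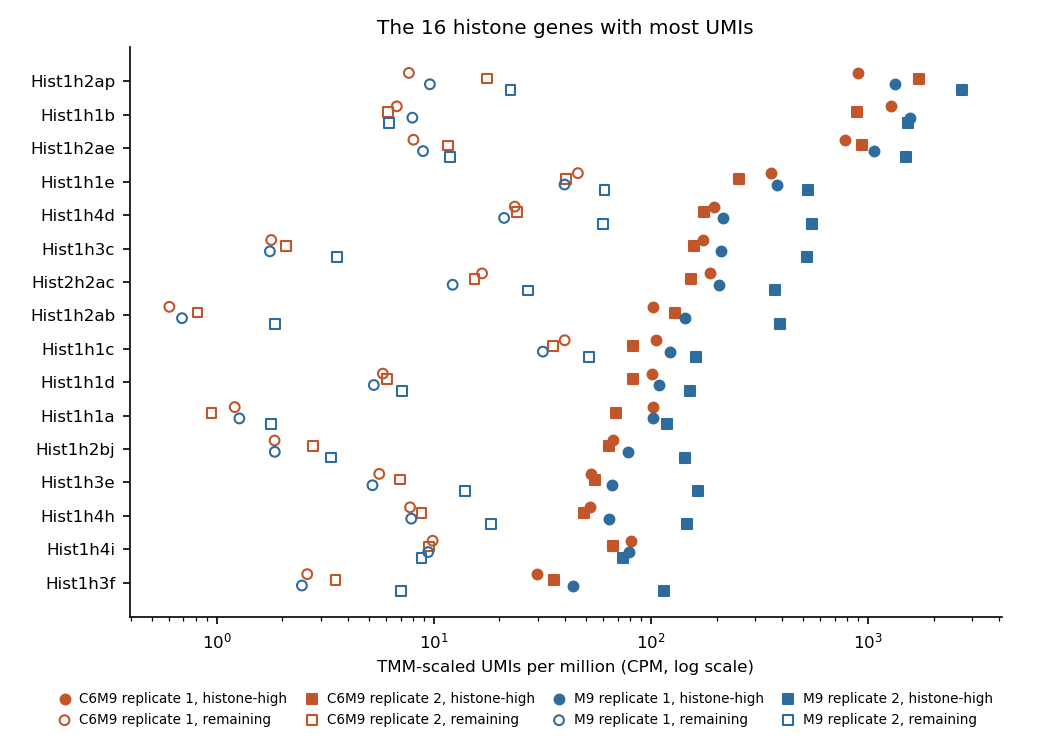
Levels of the 16 histone genes with most UMIs, in CPM on a log axis, in histone-high cells (filled) and remaining cells (open) of each library; circles are replicate 1 and squares replicate 2, C6M9 in orange and M9 in blue. M9 replicate 2 lies to the right of the other 3 libraries in most genes, as in Hist1h4d with 550 CPM.

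The machinery of DNA replication was high along with the histones. Of 9109 genes with at least 5 CPM in either class, 595 were at least 2-fold higher in histone-high than in remaining cells in all 4 libraries (6.53%) and 83 at least 2-fold lower (0.911%). The score is correlated with these genes across cells, so the counts describe the choice and test nothing. Among origin licensing and helicase genes 19 of 20 were past 2-fold, among polymerase and fork genes 22 of 24, among nucleotide synthesis genes 11 of 13 and among replication checkpoint and repair genes 16 of 17. The median log2 ratio over the remaining cells was 2.43, 2.18, 1.79 and 2.57 in these 4 lists, against -0.03 over all genes.

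Mcm5, a subunit of the replicative helicase, had 248 and 217 CPM in histone-high cells of C6M9 and 242 and 257 CPM in those of M9, with 27.3 to 31.7 CPM in remaining cells. Pclaf, a partner of the sliding clamp PCNA and one of the 5 markers given for these cells, had 1026 and 804 CPM in C6M9 and 1005 and 954 CPM in M9, with 19.3 to 38.0 CPM in remaining cells. Pcna itself had 532 and 482 CPM in C6M9 and 538 and 539 CPM in M9. Lig1, which joins Okazaki fragments, had 233 and 193 CPM in C6M9 and 235 and 253 CPM in M9. The groups overlapped in Mcm5 and Pclaf and differed by less than 1 SE in Mcm5, Pclaf and Pcna.

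Enzymes that supply nucleotides followed. Tyms, thymidylate synthase, had 223 and 191 CPM in C6M9 and 246 and 203 CPM in M9, and Rrm1, the partner of Rrm2, 233 and 203 CPM in C6M9 and 247 and 222 CPM in M9. Of the factors that handle histones, Slbp, which binds the stem-loop, had 349 and 299 CPM in C6M9 and 330 and 303 CPM in M9, 1.75 to 2.04 above the remaining cells on the log2 scale. The chaperone Asf1b was 3.76 to 4.24 above. Npat and Casp8ap2, which act at histone loci, were 0.51 to 0.72 and 0.90 to 1.27 above. The polyadenylated variant H2afz had 2191 and 1796 CPM in C6M9 and 2169 and 1760 CPM in M9, while H3f3a and H3f3b were at most 0.31 and 0.35 above the remaining cells.

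No gene of the 6 lists on replication, nucleotides, checkpoint, histone supply and chromatin passed between the groups in histone-high cells. Of 94 tested, edgeR called 0 and DESeq2 0, and 14 were under 0.05 before adjustment. Over all genes tested, edgeR called 0.33% higher and 0.46% lower in C6M9, and 0 of these 94 is near that share. With no filter on low counts 1 passed, and without M9 replicate 1 there were 2. Their log2 differences ran from -0.48 to 0.23 with a median of -0.12, and 80 of 94 were below 0. In simulated data with the size of these sums, the test recovered 58.6% of genes changed 1.5-fold and 97% of genes changed 2-fold. Every simulated gene had the same spread between libraries (dispersion 0.009) and no library stood apart. The rates therefore cannot show the recovery of genes with more spread.

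The promoters of Hist1h1b and Clspn show the sequence setting of the score genes, a linker histone and a fork protein. They run from 250 bases before to 50 after the annotated start (RefSeq, GRCm38.p6), and the capitals mark matches, on either strand, to CCAAT, to TATAAA, to the H1 box AAACACA and to the E2F motifs TTTGGCGC, TTTCCCGC, TTTCGCGC and TTTGCCGC. The Hist1h1b promoter (RefSeq symbol H1f5, chr13:21780576-21780875, minus strand) held 3 CCAAT boxes, 1 H1 box and 1 TATA box. The Clspn promoter (chr4:126556730-126557029, plus strand) held 2 CCAAT boxes and 1 E2F motif.
Hist1h1b: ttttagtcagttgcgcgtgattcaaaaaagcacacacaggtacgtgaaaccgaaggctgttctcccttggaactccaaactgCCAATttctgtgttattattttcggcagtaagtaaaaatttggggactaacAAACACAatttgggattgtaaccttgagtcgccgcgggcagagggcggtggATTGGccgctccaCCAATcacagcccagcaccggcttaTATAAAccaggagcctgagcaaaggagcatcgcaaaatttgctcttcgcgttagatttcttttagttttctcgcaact
Clspn: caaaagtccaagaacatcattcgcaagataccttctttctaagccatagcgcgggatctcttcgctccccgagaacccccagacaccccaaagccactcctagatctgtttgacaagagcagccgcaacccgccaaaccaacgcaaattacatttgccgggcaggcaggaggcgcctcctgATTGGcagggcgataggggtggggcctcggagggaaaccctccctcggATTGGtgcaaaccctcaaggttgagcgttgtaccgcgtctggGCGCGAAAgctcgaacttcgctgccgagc

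The lists differed in these letters. Among histone genes at 1 CPM or more, CCAAT stood in 5 of 5 matched promoters of H1, 13 of 13 of H2A, 14 of 14 of H2B and 8 of 8 of H3 genes, in 3 of 11 H4 promoters, in 26 of 28 promoters of G2 and mitosis genes, and in 37.9% of all 27025 promoters. The H1 box stood in 4 of 5 H1 promoters, against 7.14% of all. An E2F motif stood in 8 of 15 licensing and helicase promoters, 5 of 12 checkpoint and repair promoters and 6 of 21 polymerase and fork promoters, but in 0 of 12 nucleotide synthesis promoters, against 1 of 28 for G2 and mitosis genes and 2.32% of all. A match is a run of letters and was not tested for binding.

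G2 and mitosis genes were high in these cells too. All 30 genes of that list were at least 2-fold above the remaining cells in each library, with a median log2 ratio of 4.23. Cells high for 7 mitotic genes of that list had been taken out of the remaining cells, so this gap was partly built in. Of the 20 genes with the highest smallest ratio outside the score, most are known for chromosome segregation or G2. Nusap1, a spindle protein, had 150 to 204 CPM in histone-high cells and 1.50 to 1.86 CPM in remaining cells. Ccna2, cyclin A2, had 135 to 164 CPM against 1.06 to 3.03 CPM. Esco2, the S phase acetyltransferase of sister cohesion, had 80.7 to 121 CPM against 0.177 to 0.730 CPM. The transcription factor E2f8 had 47.2 to 62.1 CPM against 0.309 to 0.603 CPM. Mxd3, Plk1, Hmmr, Cdk1, Kif11, Spc25, Tpx2, Knl1, Sgo1, Kif4, Ckap2l, Aurkb, Cenpf, Pclaf, Hist1h1a and Hist1h2an made up the rest. Plk1 and Cenpf were among the 7 genes by which those cells had been taken out.

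A second score of 7 late G2 and mitosis genes (Ccnb1, Ccnb2, Cdc20, Cenpa, Cenpf, Plk1 and Ube2c) placed the same cells. The top 12% of eligible cells by that score held 665 of the 1172 histone-high cells (56.7%). The 507 late G2 and mitosis cells outside the histone-high set were the class most like it. The G2 and mitosis list was at the same level in both, with a median log2 ratio of -0.08, while licensing, polymerase and checkpoint genes were 1.77, 1.52 and 1.92 higher in histone-high cells by the median. The G2 and mitosis list includes the 7 genes that chose the late G2 and mitosis cells. Esco2 and E2f8 separated the 2 classes, with 0.673 to 8.76 CPM and 4.04 to 6.53 CPM in late G2 and mitosis cells. Hmmr, Tpx2 and Cenpf were the higher ones there, Hmmr with 141 to 188 CPM against 92.6 to 134 CPM in histone-high cells. Cenpf had 214 to 312 CPM there against 133 to 172 CPM in histone-high cells. It is one of the 7 genes that chose the late G2 and mitosis cells, so its higher level was built in. Of the 5 markers given for the S phase label, 4 were score genes and so fixed by the rule, and Pclaf lay outside it. The set also held cells with G2 and mitosis messages.

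Histone-high cells were not uniform. Divided by score into groups 1 to 4 of 293 cells each, low to high, their summed histone levels went up by construction, with 671, 2807, 7533 and 14510 CPM as the mean of the 4 libraries. Top2a, topoisomerase II alpha, had 225, 399, 784 and 1318 CPM over the same groups. Cdc6, which loads the helicase before S phase, had 67.0, 69.0, 61.7 and 32.4 CPM over groups 1 to 4 in C6M9 replicate 1 and 58.3, 54.7, 42.1 and 34.6 CPM in C6M9 replicate 2. In M9 replicate 1 it had 74.4, 62.2, 53.4 and 38.8 CPM, and in M9 replicate 2 54.1, 117, 74.7 and 58.7 CPM, where group 2 held 22 cells. It was thus lowest in group 4 in 3 of the 4 libraries, and the group with its highest level differed between libraries. Ccne2, cyclin E2, averaged 29.6, 41.5, 34.4 and 29.1 CPM and also had its highest level in different groups. Cdc20, which acts in mitosis, had 122.5, 72.3, 75.3 and 118 CPM as the mean of the libraries, and groups 2 and 3 lay below groups 1 and 4 in each of the 4 libraries. Ccnb1, cyclin B1, averaged 80.7, 55.1, 77.5 and 95.6 CPM and was lowest in group 2 in 3 of the 4 libraries. The share of cells in the late G2 and mitosis top 12% was 59.9%, 45.1%, 52.9% and 71.6%.

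Depth did not follow the score: median UMIs per cell averaged 39950, 62030, 61780 and 43020 over the groups. Group 1 had a mean histone sum of 671 CPM, against 447 CPM in late G2 and mitosis cells. Its mean Cdc6 level was 63.4 CPM, against 9.56 CPM there. Levels over these groups, and those set beside them here, are CPM without TMM scaling.

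**Figure D2:**
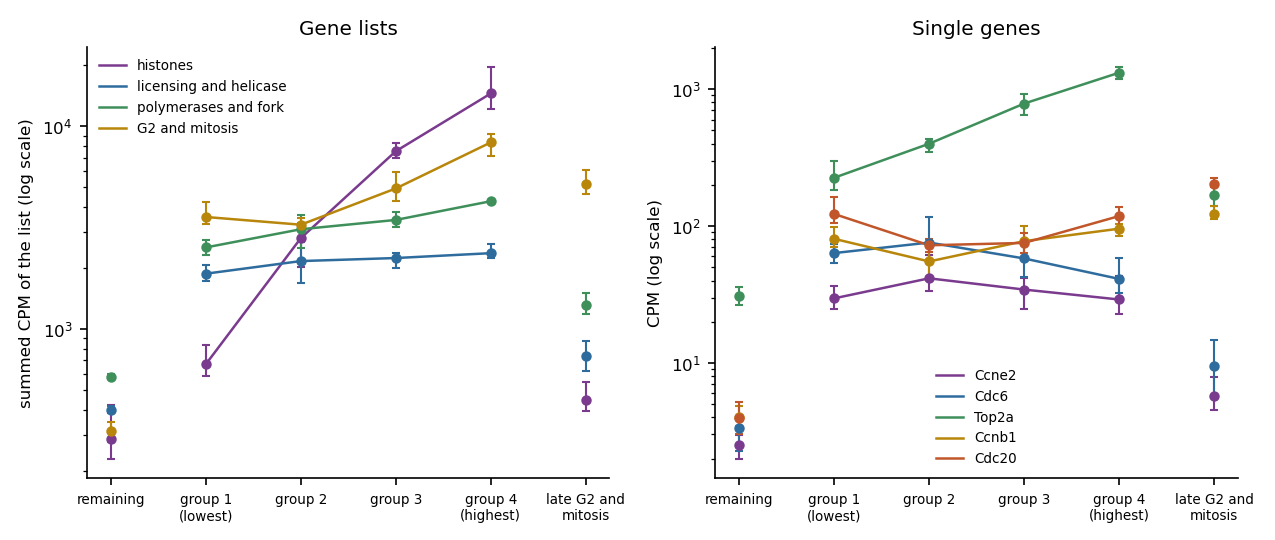
Summed CPM of 4 gene lists and CPM of 5 genes, on log axes, in remaining cells, in groups 1 to 4 of histone-high cells by score and in late G2 and mitosis cells; points are the mean of the 4 libraries and bars their lowest and highest value. Histones increase over the groups by construction, and Cdc20 is lower in groups 2 and 3 than in groups 1 and 4; the mean of Cdc6 in group 2 is raised by M9 replicate 2, with 117 CPM.

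Histone-high cells carried more RNA than the others. Their median was 42520 and 62450 UMIs per cell in C6M9, against 11470 and 17090 in remaining cells, and 37420 and 54400 in M9, against 12310 and 18600. The ratio was 3.68 ± 0.038 in C6M9 and 2.98 ± 0.081 in M9 (SD, n = 2 each), and an exact 2-sided permutation test gave p = 0.333, the smallest that 2 against 2 libraries allow. A pair of cells in 1 droplet would also carry more UMIs. By Scrublet score 52 histone-high cells were among the 296 barcodes scored highest, counted within each library before the eligibility filter. Histone-high cells were 10.55% of all barcodes. The median score was 0.070 to 0.079 in histone-high cells and 0.079 to 0.085 in remaining cells. When each cell was thinned to 4000 UMIs before scoring, 1011 of the 1172 cells (86.3%) were chosen again.

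The share of histone-high cells was higher in both C6M9 libraries than in either M9 library, within limits set by M9. C6M9 had 421 of 2793 eligible cells (15.1%, 95% exact binomial interval 13.8% to 16.5%) and 252 of 1666 (15.1%, 13.4% to 16.9%). M9 had 342 of 4120 (8.30%, 7.48% to 9.19%) and 157 of 1191 (13.2%, 11.3% to 15.2%). The intervals cover counting error only, and that of M9 replicate 2 overlaps those of C6M9. The means were 15.1% ± 0.037 in C6M9 and 10.7% ± 3.45 in M9 (SD, n = 2 each), a difference of 4.36 percentage points with exact p = 0.333. The difference was 6.80 points without M9 replicate 2 and 1.92 points without M9 replicate 1. Because the rule fixes the share over all libraries, only its division among them was measured.

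The late G2 and mitosis share had no stable direction between C6M9 and M9. Of histone-high cells, 59.1% and 52.0% were in the late G2 and mitosis top 12% in C6M9, against 56.4% and 58.6% in M9. The difference was -1.95 points (exact p = 1), and it was above 0 in 3 of the alternatives tried. Outside the histone-high set the groups did not overlap, with 8.01% and 7.5% of cells in that top 12% in C6M9, against 4.47% and 4.06% in M9 (exact permutation p = 0.333).

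**Figure D3:**
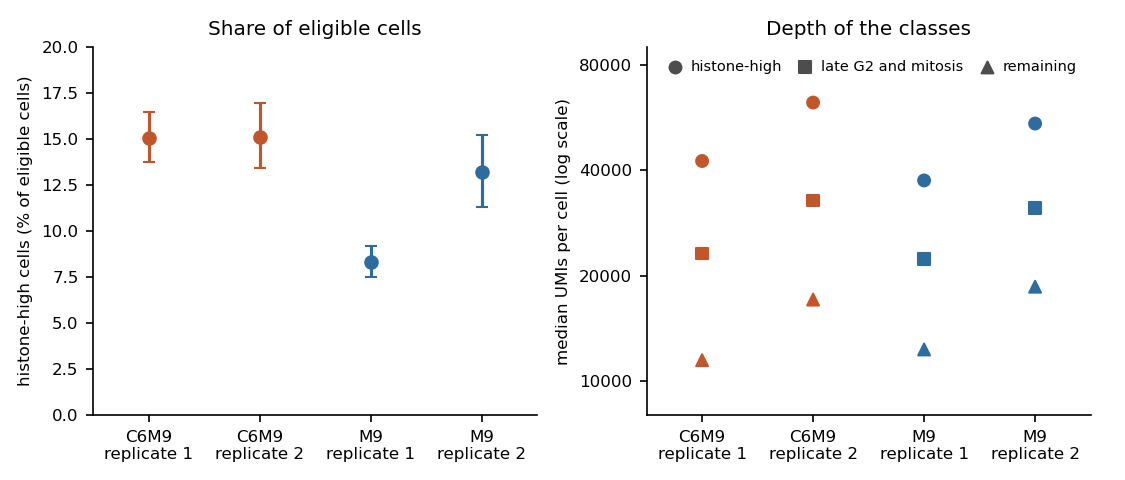
Left, histone-high cells as a percentage of eligible cells in each library with 95% exact binomial intervals; right, median UMIs per cell of histone-high, late G2 and mitosis and remaining cells on a log axis, C6M9 in orange and M9 in blue. M9 replicate 1 has the lowest share at 8.30%, and histone-high cells are the deepest class in each library.

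The genes lowest in histone-high cells were of other kinds. The 12 genes furthest below the remaining cells in every library included Malat1, a nuclear noncoding RNA, with 4426 to 5068 CPM against 13190 to 17870 CPM. Btg1, an antiproliferative gene, had 182 to 319 CPM against 679 to 810 CPM. Kdm5b, a histone H3 demethylase, had 7.74 to 14.8 CPM against 44.1 to 55.0 CPM, and the integrin Itga4 had 30.6 to 61.8 CPM against 151 to 180 CPM. Pik3ip1, an inhibitor of PI3K signalling, had 7.53 to 23.6 CPM against 38.7 to 63.8 CPM. Gm30054, Ccl5, Hspa1b, Tcp11l2, Crebrf, Slfn5 and Ifit3 completed the 12.

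By list, 24 of 24 interferon stimulated genes at 5 CPM or more lay below the remaining cells in every library, with a median log2 ratio of -0.85. Over all 9109 genes at that level 43.0% lay below in every library and 39.2% above. The same held for 17 of 19 progenitor exhausted genes, with a median of -0.70, for 16 of 18 naive and central memory genes, with -0.55, and for 9 of 10 T cell identity genes, with -0.43. Few of them were past 2-fold: 2, 1, 2 and 0. Tcf7, the transcription factor of progenitor cells, was 0.20 to 0.43 lower on the log2 scale and stayed at 464 and 507 CPM in C6M9 and 392 and 382 CPM in M9. Ribosome biogenesis genes lay the other way, all 20 above the remaining cells with a median of 0.79.

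The comparison the study was built on, C6M9 against M9, was then made within histone-high cells. In the histone-high cells of C6M9, 7 of 19 naive and central memory genes rose, Il7r, Ly6c2 and Ccl5 among them. Ccl5 was on the cytotoxic effector list as well. Of 30 genes induced through the T cell receptor 4 fell, Tnfrsf4 and Cd200 among them, and of 19 progenitor exhausted genes 3 fell and 1 rose. Of 11515 genes tested with edgeR's quasi-likelihood test, 38 were higher in C6M9 (0.33%) and 53 lower (0.46%) at an adjusted p of 0.05, and 1407 passed 0.05 before adjustment. The number called became 48 or 171 when C6M9 replicate 2 or 1 was left out, and 238 or 508 when M9 replicate 2 or 1 was, so it depended on each of the 4 libraries.

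Ccl5 (chr11:83525778-83530518), a chemokine of memory and effector CD8 T cells, had 98.4 and 112 CPM in histone-high cells of C6M9, against 24.3 and 20.5 CPM in those of M9. The groups did not overlap, and the log2 difference was 2.22 ± 0.12 (SE; adjusted p = 4.21e-05). Il7r (chr15:9505788-9530176), the receptor for the survival cytokine IL-7, had 120 and 149 CPM in C6M9, against 49.7 and 47.3 CPM in M9, a log2 difference of 1.48 ± 0.13 (SE; adjusted p = 0.00093). Tsc22d3 (chrX:140539528-140600659), a glucocorticoid-induced regulator, had 20.5 and 24.8 CPM in C6M9, against 8.94 and 6.68 CPM in M9. All 3 were also higher in the remaining cells of C6M9.

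Plac8 (chr5:100553725-100572245) had 158 and 164 CPM in C6M9, against 67.1 and 76.9 CPM in M9, and Ly6c2 (chr15:75108158-75111970), a surface protein of memory cells, 322 and 328 CPM in C6M9, against 167 and 181 CPM in M9. Klf3 (chr5:64803388-64832901), a repressor of the Krüppel-like family, had 56.5 and 56.0 CPM in C6M9, against 30.2 and 30.1 CPM in M9. The replicates of Klf3 lay within 1 CPM of each other in both groups. Epsti1, an interferon-responsive gene, rose by 0.99 on the log2 scale, Klrd1, the NK receptor chain CD94, by 0.86, F2rl1, a protease-activated receptor, by 0.88, and Tcp11l2, Treml2 and Sidt1 by 1.18, 0.84 and 0.82. Klrd1, Tcp11l2 and Treml2 no longer passed when C6M9 replicate 2 was left out.

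Among the genes that fell, Cd200 (chr16:45382135-45409053), the ligand of an inhibitory receptor, had 34.1 and 34.3 CPM in histone-high cells of C6M9, against 83.6 and 69.5 CPM in those of M9, a log2 difference of -1.17 ± 0.11 (SE; adjusted p = 0.0015). Alcam (chr16:52248996-52454074), an adhesion molecule that binds CD6, had 19.6 and 13.2 CPM in C6M9, against 36.6 and 39.8 CPM in M9. Izumo1r (chr9:14885814-14903949), folate receptor 4, had 15.5 and 16 CPM in C6M9, against 39.7 and 27.6 CPM in M9. In each of these the 2 libraries of C6M9 lay below both of M9.

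Tbc1d4 (chr14:101442360-101609191), a regulator of glucose transporter traffic, had 28.5 and 23.9 CPM in C6M9, against 55.9 and 47.0 CPM in M9. Il10ra, a chain of the IL-10 receptor, fell by 1.01 on the log2 scale, the sialic acid-binding receptor Cd22 by 1.05, the Wnt ligand Wnt10a by 0.99, and Eea1, a protein of early endosomes, by 0.81. Scd2, a fatty acid desaturase, fell by 0.81, the glycan-branching enzyme Gcnt1 by 0.75 and 2310001H17Rik by 0.77. Bcl2a1d, a BCL2 relative that protects from apoptosis, fell by 0.87. It is near-identical to Bcl2a1b, which fell by 0.52, and the pair may share UMIs. Wnt10a, Scd2, Gcnt1 and Bcl2a1b did not pass when C6M9 replicate 2 was left out.

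**Figure D4:**
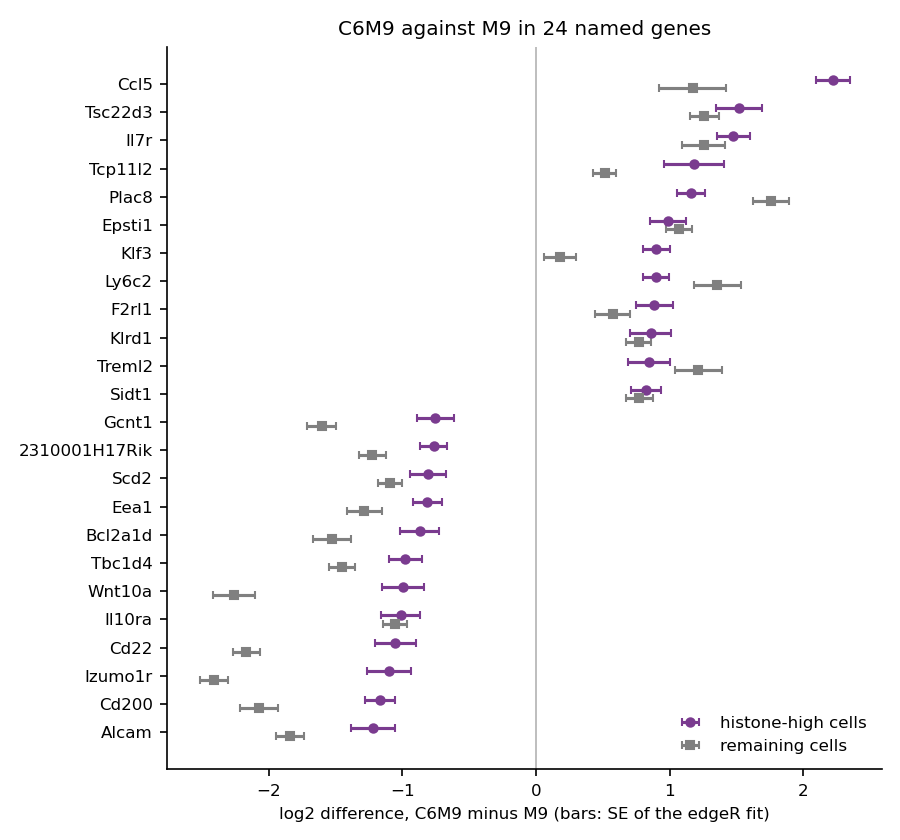
Log2 difference C6M9 minus M9 of the 12 rising and 12 falling genes named for histone-high cells (purple circles), with the same difference in remaining cells (grey squares); bars are the SE of the edgeR fit. The falling genes such as Izumo1r, at -1.10 in histone-high and -2.41 in remaining cells, lie closer to 0 in histone-high cells.

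By list, 7 of 19 naive and central memory genes tested were higher in C6M9 and 1 was lower, with a median log2 difference of 0.51, against 0.00 over all genes. They were Ccl5, Il7r, Plac8, Ly6c2, Treml2, S1pr1, the receptor for leaving lymph nodes, and Ccr7, the receptor for entering them, with Eomes as the one that fell. Ccl5 is also counted below among the cytotoxic effector genes. S1pr1 had 76.8 and 79.8 CPM in C6M9, against 53.3 and 53.1 CPM in M9. Ccr7 had 95.1 and 99.3 CPM in C6M9, against 70.2 and 64.4 CPM in M9. Tcf7 did not pass, at 0.33 with an adjusted p of 0.21. Without C6M9 replicate 2 the calls of Treml2, S1pr1, Ccr7 and Eomes were lost, and that of Eomes also without C6M9 replicate 1.

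Of 30 T cell receptor induced genes, 4 fell and 0 rose, with a median of -0.64. Tnfrsf4, the costimulatory receptor OX40, had 2.41 and 2.61 CPM in C6M9, against 19.0 and 12.7 CPM in M9, and its ligand Tnfsf4 had 2.00 and 2.12 CPM in C6M9, against 12.2 and 9.12 CPM in M9. The log2 differences were -2.68 ± 0.22 and -2.38 ± 0.22 (SE; adjusted p = 0.00093 and 0.0011). Rgs16 and Cd200 were the others. Nr4a1, a rapid target of the receptor, was 0.96 lower at an adjusted p of 0.13.

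Among the inhibitory receptors and exhaustion genes, 19 were tested, of which Lag3 and Tox2 fell and 0 rose. Lag3 had 77.0 and 78.8 CPM in C6M9, against 125 and 116 CPM in M9, and Tox2 had 4.36 and 3.87 CPM in C6M9, against 8.94 and 10.2 CPM in M9. Pdcd1, the gene of PD-1, had 30.6 and 29.3 CPM in C6M9 and 44.0 and 28.1 CPM in M9, and the groups overlapped. Of 19 progenitor exhausted genes, Cd200, Izumo1r and Eomes fell and Ccr7 rose. Slamf6 had 232 and 232 CPM in C6M9, against 331 and 299 CPM in M9, with an adjusted p of 0.079. Lag3, Eomes and Ccr7 did not pass without C6M9 replicate 2.

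Of 22 cytotoxic effector genes, Ccl5 and Klrd1 rose and Gzmk, granzyme K, fell, with 6.06 and 3.92 CPM in C6M9, against 16.9 and 18.8 CPM in M9. The cell filter had taken out cells with much Gzma or Gzmb. Of 25 interferon stimulated genes, Ifi47 rose by 0.59 and the chemokine Cxcl10 fell, with 4.01 and 4.47 CPM in C6M9, against 17.1 and 12 CPM in M9. Of 18 apoptosis genes, Bbc3, the death inducer PUMA, rose by 1.83 and Bcl2a1b and Bcl2a1d fell. S1pr1 and Ccr7 rose among 20 homing genes. Ifi47, Bbc3, Bcl2a1b, S1pr1 and Ccr7 did not pass without C6M9 replicate 2, nor Bcl2a1b without the first replicate of either group.

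Glycolysis, ribosome biogenesis, one-carbon and G2 and mitosis genes held no call. With 0.33% of all genes called higher and 0.46% lower, lists of this size without a call are near that share. Of 30 G2 and mitosis genes edgeR called 0 and DESeq2 0, while 13 were under 0.05 before adjustment. With no filter 3 passed, without M9 replicate 1 there were 2 and without C6M9 replicate 1 there was 1. Their log2 differences had a median of -0.21, and 28 of 30 were below 0. Of 6 B cell markers tested, Ighm rose, with 240 and 261 CPM in C6M9, against 163 and 168 CPM in M9, a call lost without C6M9 replicate 2. The B cell list summed to 310 and 338 CPM in C6M9, against 246 and 243 CPM in M9. The part of B cell RNA in the differences above was not tested.

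The same differences were then read in the cells outside the set. In the remaining 8091 cells 402 genes were higher in C6M9 (3.18% of 12648 tested) and 647 lower (5.12%). Of the 91 genes called in histone-high cells, 81 were also called there (89.0%, or 7.72% of the genes called in remaining cells), all 81 in the same direction. Both classes come from the same 4 libraries, so the overlap is a count and not a test. The median size of the difference for the 91 genes was 1.00 on the log2 scale in histone-high cells and 1.24 in remaining cells, and 43 of the 53 genes that fell, but 14 of the 38 that rose, did so by less in histone-high cells.

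Whether a difference between the groups itself differed between classes was tested as the product of class and group over both sets of sums. Of 12452 genes, 25 had a higher difference in histone-high cells (0.201%) and 27 a lower one (0.217%), and 1149 passed 0.05 before adjustment. The difference was larger in remaining cells for 44 of the 51 genes fitted in both classes, and 29 of the 52 were called in remaining cells alone. Leaving out a library gave 113 or 73 calls for C6M9 replicate 1 or 2, and 466 or 154 for M9 replicate 1 or 2.

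Izumo1r fell by 1.10 in histone-high cells and by 2.41 in remaining cells on the log2 scale. In remaining cells it had 20.5 and 21.2 CPM in C6M9, against 117 and 100 CPM in M9, so the M9 level differed more between classes than the C6M9 level. For Cd200 and Cd22 the difference between classes was 0.88 and 1.09. Wnt10a had 24.2 and 16.2 CPM in histone-high cells of C6M9, against 40.5 and 40.0 CPM in M9, and 10.3 and 7.03 CPM in remaining cells of C6M9, against 43.1 and 38.3 CPM in M9. Here the M9 level was alike in both classes and the C6M9 level was not.

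Nrgn, neurogranin, had 58.0 and 57.4 CPM in histone-high cells of C6M9, against 103 and 85.4 CPM in those of M9, and 17.9 and 18.1 CPM in remaining cells of C6M9, against 81.5 and 53.1 CPM in M9. Marcksl1, a regulator of actin, Slc29a1, a nucleoside transporter, Tbc1d31 and Ptprk, a receptor phosphatase, passed in remaining cells and not in histone-high cells. Slc29a1 had 56.8 and 55.0 CPM in histone-high cells of C6M9 and 77.6 and 61.0 CPM in those of M9, with 19.5 and 19.7 CPM in remaining cells of C6M9, against 50.1 and 35.4 CPM in M9. Low genes weigh more in such ratios, and Ptprk stayed under 11 CPM in each class.

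**Figure D5:**
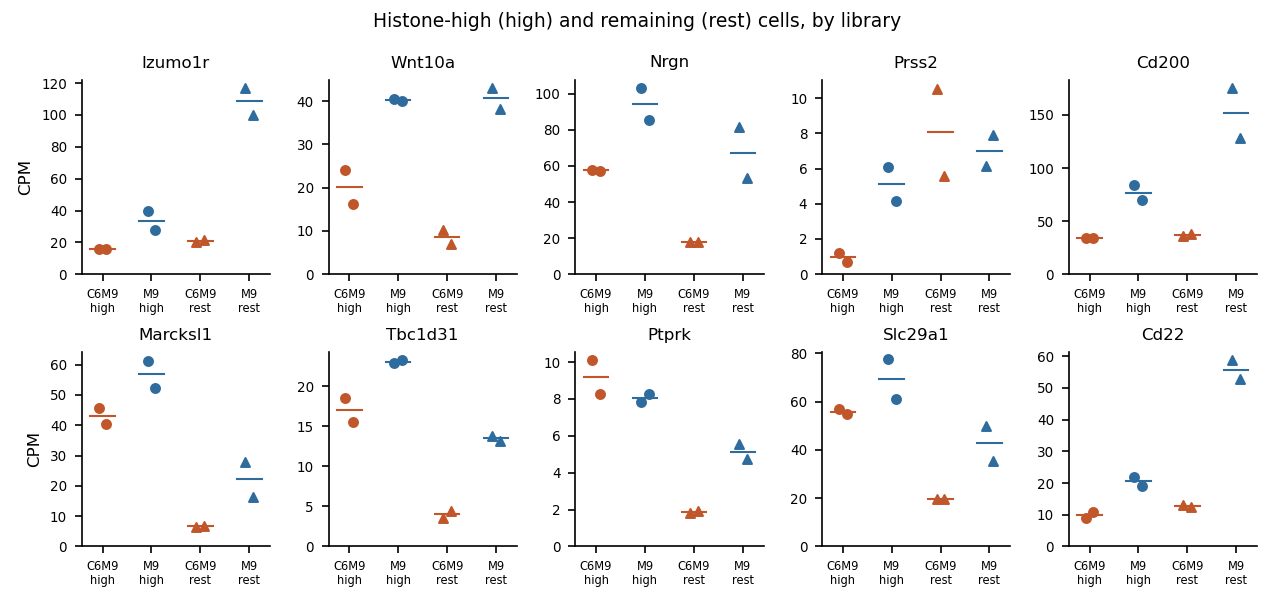
CPM of the 10 genes with the smallest adjusted p for the product of class and group, in histone-high cells (circles) and remaining cells (triangles) of each library, C6M9 in orange and M9 in blue; lines are group means. In Nrgn, Marcksl1 and Slc29a1 the C6M9 level in remaining cells is low and that in histone-high cells is closer to the M9 level, while Prss2 is lowest in histone-high cells of C6M9.

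Klf3 and Prss2 ran the other way. Klf3 rose by 0.90 ± 0.10 (SE) in histone-high cells and was 0.18 ± 0.12 higher in remaining cells, at 122 and 105 CPM in C6M9 and 88.6 and 108 CPM in M9 there, and the product passed with an adjusted p of 0.016. Prss2 (chr6:41521787-41525079), a trypsinogen gene, had 1.2 and 0.708 CPM in histone-high cells of C6M9, against 6.10 and 4.14 CPM in those of M9, and 10.5 and 5.6 CPM in remaining cells of C6M9, against 6.13 and 7.91 CPM in M9. Klf3 and Prss2 were called in histone-high cells and by the product but not in remaining cells.

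Cell cycle genes were among those with a lower difference in histone-high cells. Pclaf, Ccna2, Birc5, Ube2c, Cenpf, Tpx2 and Kif23 were called by the product, and none passed within histone-high cells. Ube2c and Cenpf were among the 7 genes by which late G2 and mitosis cells had been taken out of the remaining cells. Their levels in remaining cells were partly set by that choice, so their calls are descriptions. Of the histone genes outside the score, Hist1h2be was called by the product, with a difference of -0.93, and did not pass within histone-high cells. It had 28.8 and 30.4 CPM in histone-high cells of C6M9, against 34.2 and 71.9 CPM in M9. In remaining cells Pclaf averaged 37.4 CPM in C6M9 and 22.7 CPM in M9, and Ccna2 2.82 CPM in C6M9 and 1.2 CPM in M9. Those cells were defined by low scores, so they can hold cells near division, and their part in these values was not tested. Lyz2, a myeloid gene, averaged 10.9 CPM in remaining cells of C6M9 and 0.490 CPM in those of M9, with 0.127 and 0.235 CPM in histone-high cells of C6M9 and M9.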

How the data were processed

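Each library was deposited as a matrix of raw UMI counts, genes by barcodes, made by the authors with Cell Ranger 6.0.0 on mm10, per the submitters' processing notes. The sources used here do not name the annotation or the handling of intronic reads. Members and lists were chosen with earlier results of these data known. Cells were filtered as stated in the report, and doublets were scored with Scrublet in scanpy 1.11.5 (Python 3.11.15); its automatic threshold marked under 0.5% of cells in each library, so no cell was removed in the main analysis. Counts were summed per library over histone-high, late G2 and mitosis and remaining cells. Differences are C6M9 minus M9 from edgeR 4.0.16 (R 4.3.3; TMM, filterByExpr, quasi-likelihood test, Benjamini-Hochberg adjustment across every gene tested, at 0.05). The 7 score genes and the 4 genes of the cell filter stayed out of the tests. The 7 late G2 and mitosis score genes stayed out only of the test in late G2 and mitosis cells. The product of class and group was fitted with the library as a term. Member to remaining ratios are log2 of CPM plus 1. Shares of cells were compared by exact 2-sided permutation over libraries.

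Genes named for C6M9 against M9 were up to 12 per direction with the largest difference among those called, with at least 20 CPM in the higher group and no overlap between libraries; for the product, the 10 with the smallest adjusted p; for members over the remaining cells, 20 highest and 12 lowest at 50 CPM or more. List genes, all histone genes and genes called in histone-high but not in remaining cells are given besides; the last were chosen after their values were seen. Mx1, a list gene, was not analysed here, and some results are not reported here. GENCODE's mouse annotation M21 (GRCm38) held 32158 of the 32285 feature identifiers and gave coordinates and transcripts; promoters are RefSeq's. The tests were tried on simulated counts with the same dispersion for every gene. For the product, 72% of genes changed 2-fold were recovered with 3.95% false calls, and for members 3.73% of calls were false. Alternatives covered scaling, tool (DESeq2 1.42.0), filter, replicate block, each library left out and other member sets.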

Additional observations from a re-analysis of the deposited data

Results flagged for a closer look

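The C6M9 minus M9 difference was not the same in histone-high and remaining cells for 52 genes by the product of class and group in edgeR at an adjusted p of 0.05. On the log2 scale the difference in histone-high cells minus that in remaining cells was 1.30 for Izumo1r, 1.25 for Wnt10a, 1.19 for Nrgn, -2.69 for Prss2, 0.88 for Cd200, 1.33 for Marcksl1, 1.33 for Tbc1d31, 1.67 for Ptprk, 0.82 for Slc29a1 and 1.09 for Cd22. With 2 libraries per group no library could be tested as standing apart from its group.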

How the results depend on the processing

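The number of genes called in histone-high cells, 91, was 87 with RLE scaling, 143 with DESeq2, 563 with no filter on low counts and 208 with the replicate block. Other member sets gave 41 (top 8%), 183 (top 16%), 60 (score without H2A genes), 27 (top 12% within each library), 162 (members outside the late G2 and mitosis top 12%) and 43 (score of at least 1). Leaving out a library gave 48 to 508. In remaining cells 1049 genes were called, 1716 with no filter, 1412 with the replicate block and 635 to 2715 with a library left out. In late G2 and mitosis cells 33 were called, 138 with no filter, 58 with the replicate block and 66 to 222 with a library left out. For the product, 52, the counts were 33 with DESeq2, 237 with no filter, 102 at 4000 UMIs per cell, 163 without the highest doublet scores, 31 at a score of at least 1 and 73 to 466 with a library left out. The crossed replicate block, chosen after seeing the data because same-numbered libraries deviated in opposite directions (correlation -0.12 over 8681 genes), gave 250 in histone-high, 1385 in remaining and 6 in late G2 and mitosis cells.

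The difference in the late G2 and mitosis share was 7.31 points at the top 16% and 5.63 at 4000 UMIs per cell, and ran from -5.53 to 1.63 with a library left out. UMIs per cell were 3.33 times those of remaining cells, and 2.90 times at the top 16%. The member share difference was above 0 in the alternatives in which it can vary, 1.92 to 6.80 points with a library left out; taking the top 12% within each library fixes it at 0. Of 39 genes named or listed and called, none changed sign; 25 held without C6M9 replicate 2, 25 at the top 8%, 25 at a score of at least 1 and 18 with the top 12% within each library. The cause was not tested. Members of at least 15000 UMIs and of a score of at least 1 were also sets chosen after seeing the data. Precision is limited by 2 libraries per group and by 157 to 421 cells per library.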

Other observations

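Of the 91 genes called between C6M9 and M9 in histone-high cells, 10 were not called in remaining cells. Actn1, Ccr7, Gm2682, Lfng and Slfn1 were higher in C6M9 in both classes, at 0.59, 0.53, 0.58, 0.66 and 0.64 in histone-high cells and 0.38, 0.24, 0.37, 0.50 and 0.47 in remaining cells on the log2 scale. Klf3 and Prss2 also passed the product of class and group. Alpk2 had 2.20 and 4.90 CPM in histone-high cells of C6M9, against 0.291 and 0.636 CPM in those of M9. Gm26885 had 0.15 and 0.980 CPM in C6M9, against 3.42 and 4.35 CPM in M9. The genes named here were singled out after their values were seen.

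Across 32 histone genes outside the score with a stem-loop motif and at least 1 CPM, the bases annotated after the stem-loop and the log2 ratio of histone-high over remaining cells had a Spearman correlation of -0.20, and of -0.32 over 36 with the score genes in. The genes share libraries and sequence, and the value is a description.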
